A study of Drosophila melanogaster with 13 samples.

Results

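The genes described here are 44 genes of G2 and mitosis, which are the mitotic cyclins and kinases and the spindle, kinetochore, condensin and cytokinesis proteins. They were taken by gene symbol from a table of 17633 genes, and all 44 were found and had enough counts to be tested. RNA was measured with QuantSeq, a method that reads each transcript by a tag from its 3′ part, in clones of cells sorted by flow cytometry from the optic lobe of Drosophila larvae at the wandering L3 stage, the last before pupation. The 3 genotypes were compared, with 3 libraries each. The first, WT, has columns of counts that carry the name FRT42D. The second, lola[E76], is mutant for lola, which encodes a family of BTB zinc finger transcription factors, and has columns named Lola42D. The third, nerfin-1[159], is mutant for the zinc finger factor nerfin-1 and has columns named Nerfin2A. No WT library carries the 2A name, so every comparison of nerfin-1[159] with WT also compares columns of different names. All libraries came from sorts of several days that were pooled into 3 samples per genotype. Separate animals were not named, so a p-value here covers only how far these pooled samples spread. Contact of the isoform Lola.N with DNA was mapped by Targeted DamID, in which a Dam methylase fused to Lola.N marks the DNA it touches, in 2 replicates of cells with the driver ey16F10-GAL4 in the L3 brain, against Dam alone.

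Entry into mitosis is driven by the kinase Cdk1 bound to a mitotic cyclin. Inhibitory phosphates are placed on Cdk1 by Wee1 and Myt1 and removed by the phosphatase String (stg), the fly Cdc25. Condensins, kinetochores, spindle motors and the cytokinetic ring then act in turn, and the anaphase-promoting complex ends mitosis by marking cyclins and securin for destruction. In the optic lobe, neuroblasts and their ganglion mother cells divide while most neurons do not.

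Libraries held 3465601 to 5200223 counts assigned to genes, and 3 counts in a library were worth 0.577 to 0.866 CPM, which are counts scaled to a library of 1000000. Levels are given as CPM after scaling by the trimmed mean of M-values. A log2 difference is the one fitted by edgeR's quasi-likelihood test, given ± its standard error, and a gene was called higher or lower at a Benjamini-Hochberg adjusted p of 0.05 over 7451 tested genes. The standard error was derived from the test, as the absolute log2 difference divided by the square root of the F statistic. nerfin-1 itself stood at 283.6 ± 25.8 CPM in WT, 139.1 ± 15.0 in lola[E76] clones and 9.10 ± 8.38 in those of nerfin-1[159] (SD, n = 3 each), and fell by 4.98 ± 0.36 on the log2 scale between nerfin-1[159] and WT (adjusted p = 4.16e-08). lola tags stood at 1763 ± 173 CPM in WT and 1984 ± 222 in lola[E76] (SD, n = 3 each), so the tags do not check the lola genotype. In nerfin-1[159] they stood at 2565 ± 117 CPM, higher than in WT by 0.54 ± 0.10 on the log2 scale (adjusted p = 0.00124).

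In nerfin-1[159] clones, 20 of the 44 mitotic genes were higher than in WT and 0 were lower, against 5.66% of all tested genes called higher and 6.27% called lower. Those genes span Cyclin A, Cyclin B, Cdk1, stg, polo, the 3 listed condensin genes, the passenger scaffold Incenp, several spindle motors and 3 cytokinesis genes. Their log2 differences lay between 0.72 and 1.498. The median log2 difference of the 44 was 0.88, beside 0.00 over all tested genes, and 41 of the 44 estimates were above 0, beside 50.2% of all tested genes. All 3 nerfin-1[159] libraries were above all 3 WT libraries for 28 of the 44, beside 14.9% of all tested genes. At an unadjusted p of 0.05, 25 were higher and 0 lower, DESeq2 called 20 higher and 0 lower, and limma voom 19 and 0. Without nerfin-1[159] replicate 3, 13 were called higher, and 12 of the 20 were called whichever library was left out and under every other setting. In lola[E76] clones the test called CycB and sub, both higher, which is 2 of 44 beside 3.58% of all tested genes called higher, 2.91% called lower and 6.5% called in either direction. There edgeR called 0 of the 44 lower, with 1 lower at an unadjusted p of 0.05 and 0 by DESeq2 or limma voom. The median of the 44 there was 0.19, beside -0.00 over all genes, and 29 of the 44 estimates were above 0, beside 49.8% of all tested genes.

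Summed over the 44 genes, the level was 1863, 2320 and 2564 CPM in the WT libraries, 2482, 2556 and 2226 in lola[E76] clones and 4079, 3893 and 4078 in those of nerfin-1[159]. The nerfin-1[159] libraries stood apart from the other 6, and the lola[E76] libraries lay within the WT range. The ratio of mean sums was 1.79 for nerfin-1[159] to WT and 1.08 for lola[E76] to WT. Without the 3 most abundant genes these ratios were 1.66 and 1.13. In libraries made from many cells, more dividing cells and more RNA per dividing cell cannot be told apart.

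**Figure D1:**
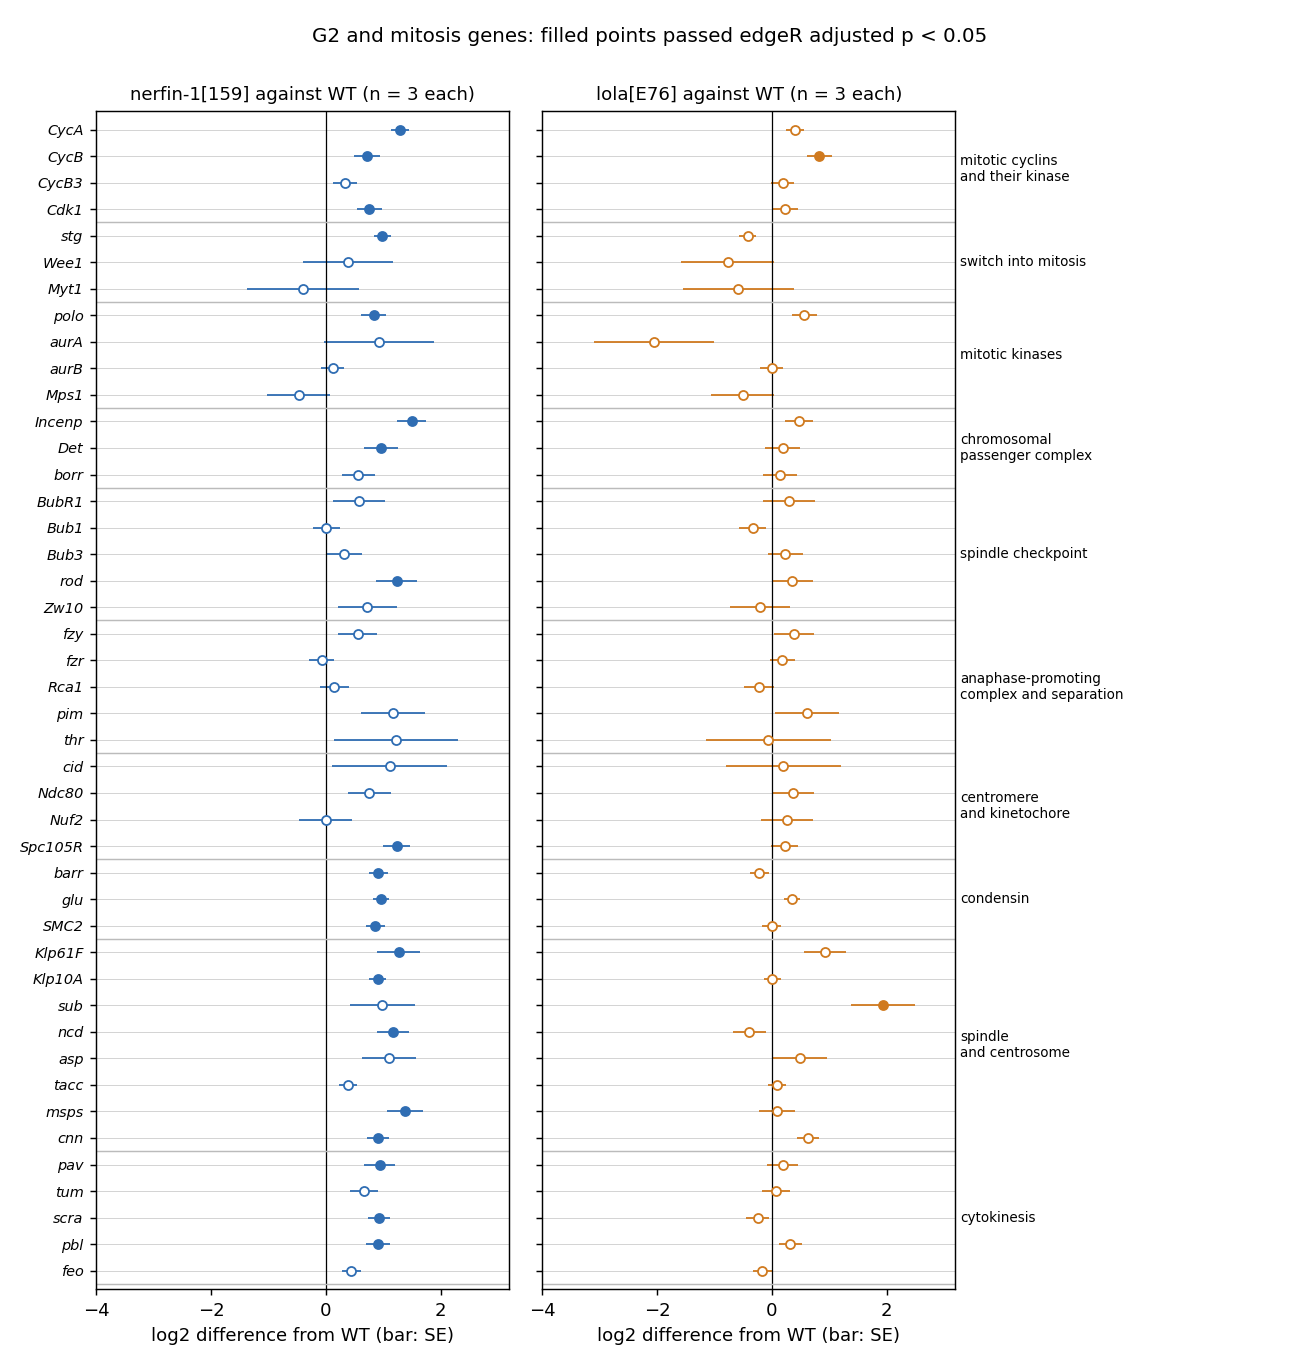
Log2 difference of each of the 44 genes (horizontal axis, edgeR estimate with its standard error as a bar) for nerfin-1[159] and lola[E76] against WT, grouped by role, with filled points for called genes. The 20 called genes of nerfin-1[159] lie between 0.72 and 1.498, and in lola[E76] the filled points are CycB at 0.83 and sub at 1.94.

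Among the mitotic cyclins and their kinase, 3 of 4 genes rose in nerfin-1[159]. CycA, the A-type cyclin that flies need to enter mitosis, stood at 141, 169 and 225 CPM in the WT libraries, 279, 212 and 219.6 in those of lola[E76] and 433, 431 and 448 in those of nerfin-1[159]. All nerfin-1[159] libraries were above all others, and the lola[E76] libraries overlapped WT. The log2 difference of CycA between nerfin-1[159] and WT was 1.29 ± 0.16 (adjusted p = 1.34e-05). CycB, a B-type partner of Cdk1, stood at 27.0, 32.7 and 27.7 CPM in the WT libraries, 62.9, 52.8 and 39.8 in those of lola[E76] and 51.3, 47.6 and 45.6 in those of nerfin-1[159]. Both mutants lay wholly above WT and overlapped each other. Between nerfin-1[159] and WT, CycB differed by 0.72 ± 0.22 on the log2 scale (adjusted p = 0.0402). That call was lost without any 1 of the WT or nerfin-1[159] libraries and without lola[E76] replicate 2. It was also lost with limma voom, with no low-count filter and with the replicate number as a block. The adjusted p reached 0.142 among these fits. Against the same WT libraries lola[E76] gave a log2 difference of 0.83 ± 0.22 (adjusted p = 0.0289). Cdk1, the kinase itself, stood at 48.6, 89.8 and 58.9 CPM in the WT libraries, 91.7, 83.2 and 57.6 in those of lola[E76] and 121, 103 and 111 in those of nerfin-1[159]. Its nerfin-1[159] libraries were above the other 6, and lola[E76] overlapped WT. For Cdk1 the log2 difference from WT was 0.76 ± 0.22 (adjusted p = 0.026). Cdk1 was not called without WT replicate 1 or 3 or any 1 nerfin-1[159] library, the adjusted p reaching 0.144. CycB3, the other B-type cyclin, was not called, with a log2 difference of 0.34 ± 0.20 (adjusted p = 0.37) for nerfin-1[159] against WT.

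The switch into mitosis is represented by stg and the opposing kinases. stg was the most abundant of the 44 genes in WT and stood at 288, 315 and 430.2 CPM in the WT libraries, 282, 275 and 217 in those of lola[E76] and 780.1, 607 and 658 in those of nerfin-1[159]. The nerfin-1[159] libraries were the highest and the lola[E76] libraries the lowest, with no overlap between any pair of genotypes. The estimate for stg against WT was 0.98 ± 0.15 in nerfin-1[159] on the log2 scale (adjusted p = 0.000167), whereas lola[E76] against WT gave a log2 difference of -0.42 ± 0.15 (adjusted p = 0.117) and was not called. Wee1 reached at most 11.5 CPM in any library and Myt1 at most 5.36 CPM, both had 0 counts in lola[E76] replicate 1, and neither was called in any comparison. Tribbles (trbl), which promotes destruction of the String protein in flies, is not among the 44. It stood at 5.33 ± 1.87 CPM in WT, 8.29 ± 0.60 in lola[E76] clones and 33.8 ± 4.15 in those of nerfin-1[159] (SD, n = 3 each). It was called higher in nerfin-1[159] than in WT, with a log2 difference of 2.65 ± 0.36 (adjusted p = 5.07e-05), so RNA for the activator and for its antagonist was higher in the same libraries.

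Of the mitotic kinases, 1 of 4 was called. polo, which acts at centrosomes, kinetochores and the midzone, stood at 39.7, 46.7 and 58.7 CPM in the WT libraries, 83.7, 82.7 and 49.6 in those of lola[E76] and 79.0, 81.5 and 99.4 in those of nerfin-1[159]. Its nerfin-1[159] libraries were above WT, while lola[E76] overlapped both other genotypes. polo in nerfin-1[159] exceeded WT by 0.84 ± 0.22 on the log2 scale (adjusted p = 0.0143). Without WT replicate 1 or 2 or nerfin-1[159] replicate 3 polo was not called, the adjusted p reaching 0.0846. aurB, the kinase of the chromosomal passenger complex, stood at 73.5, 119.5 and 124 CPM in the WT libraries, 114, 105 and 99.2 in those of lola[E76] and 106, 93.3 and 146 in those of nerfin-1[159]. The genotypes overlapped throughout. The log2 difference of aurB between nerfin-1[159] and WT was 0.12 ± 0.20 (adjusted p = 0.82) and was not called. The checkpoint kinase Mps1 also gave no call, with a log2 difference of -0.47 ± 0.54 (adjusted p = 0.709) in nerfin-1[159]. aurA, the centrosomal Aurora kinase, was near the counting floor, with raw counts of 9, 16 and 15 in the WT libraries, 0, 3 and 6 in those of lola[E76] and 15, 22 and 25 in those of nerfin-1[159]. No pair of genotypes overlapped for aurA after scaling, and no comparison was called, the nearest being nerfin-1[159] against lola[E76] with a log2 difference of 2.98 ± 1.06 (adjusted p = 0.0676).

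The passenger complex carries Aurora B to the centromere and the midzone through the scaffold Incenp, Det (the fly survivin) and borr (borealin). Incenp stood at 27.3, 59.4 and 68.0 CPM in the WT libraries, 56.9, 71.5 and 87.8 in those of lola[E76] and 135, 149 and 156 in those of nerfin-1[159]. The nerfin-1[159] libraries lay above the other 6, and WT replicate 1 was the lowest of all. Between nerfin-1[159] and WT, Incenp differed by 1.498 ± 0.25 on the log2 scale (adjusted p = 0.000363), the highest estimate of the 44 in that comparison. Det stood at 13.8, 17.9 and 16.3 CPM in the WT libraries, 23.5, 15.5 and 15.9 in those of lola[E76] and 40.2, 27.1 and 26.7 in those of nerfin-1[159]. All nerfin-1[159] libraries lay above the rest. For Det the log2 difference from WT was 0.96 ± 0.30 (adjusted p = 0.0432). Det lost its call without any 1 of the WT or nerfin-1[159] libraries. No low-count filter and the replicate number as a block also lost it, the adjusted p reaching 0.21 among all these fits. borr was not called, with a log2 difference of 0.57 ± 0.29 (adjusted p = 0.274), and the genotypes overlapped. A test of Incenp or Det against aurB, their kinase partner, was not made.

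Among the spindle checkpoint genes, rod was called and 4 others were not. rod, a subunit of the complex that brings dynein and Mad proteins to kinetochores, stood at 9.45, 15.6 and 15.4 CPM in the WT libraries, 15.3, 24.99 and 11.8 in those of lola[E76] and 31.7, 21.8 and 42.4 in those of nerfin-1[159]. All nerfin-1[159] libraries exceeded WT, though the lowest overlapped lola[E76]. The estimate for rod against WT was 1.24 ± 0.35 in nerfin-1[159] on the log2 scale (adjusted p = 0.0264). rod was not called without any 1 WT library or nerfin-1[159] replicate 1 or 3, the adjusted p reaching 0.168. Its partner Zw10 was not called, with a log2 difference of 0.72 ± 0.52 (adjusted p = 0.469). Estimates of the remaining 3 were 0.57 for BubR1, 0.01 for Bub1 and 0.33 for Bub3, all on the log2 scale against WT. Of the anaphase-promoting complex and separation genes, 0 of 5 was called by edgeR in any comparison, with 1 higher at an unadjusted p of 0.05 in nerfin-1[159] against WT and 0 calls by DESeq2 or limma voom. fzy (Cdc20) and fzr (Cdh1), the activators of the complex, gave log2 differences of 0.55 ± 0.35 and -0.07 ± 0.22 in nerfin-1[159]. Rca1, an inhibitor of the complex, gave 0.15 ± 0.26. pim, the fly securin, stood at 4.32, 3.54 and 6.06 CPM in the WT libraries, 12.3, 5.17 and 4.02 in those of lola[E76] and 13.3, 9.03 and 9.33 in those of nerfin-1[159], and its nerfin-1[159] libraries were above WT, with a log2 difference of 1.18 ± 0.56 (adjusted p = 0.219). thr, the fly separase, had the lowest mean WT level of the 44, at 1.98 CPM.

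At the kinetochore, Spc105R, the fly KNL1 that recruits checkpoint proteins, stood at 40.0, 29.8 and 28.6 CPM in the WT libraries, 43.1, 45.7 and 25.9 in those of lola[E76] and 71.9, 80.2 and 78.6 in those of nerfin-1[159]. The nerfin-1[159] libraries were the highest, and lola[E76] overlapped WT. Spc105R in nerfin-1[159] exceeded WT by 1.24 ± 0.23 on the log2 scale (adjusted p = 0.00115). Its microtubule-binding partners were not called, Ndc80 with a log2 difference of 0.76 ± 0.37 (adjusted p = 0.233) and Nuf2 with a log2 difference of 0.00 ± 0.46 (adjusted p = 1). cid, the centromeric histone, had fewer than 30 counts in every library, as did Myt1, aurA and thr.

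Condensin was the role in which every listed gene was called. glu, the fly SMC4, stood at 124, 141 and 159.7 CPM in the WT libraries, 204, 168 and 171 in those of lola[E76] and 297, 260.0 and 275 in those of nerfin-1[159]. SMC2, its partner ATPase, stood at 90.5, 113 and 136 CPM in the WT libraries, 101, 122 and 117 in those of lola[E76] and 197, 241 and 183 in those of nerfin-1[159]. barr, the kleisin that closes the ring, stood at 72.9, 63.7 and 84.5 CPM in the WT libraries, 67.0, 68.3 and 55.2 in those of lola[E76] and 152, 134 and 131 in those of nerfin-1[159]. For each of the 3 subunits, the nerfin-1[159] libraries were above the other 6. The log2 difference of glu between nerfin-1[159] and WT was 0.97 ± 0.14 (adjusted p = 7.45e-05). Between nerfin-1[159] and WT, SMC2 differed by 0.87 ± 0.16 on the log2 scale (adjusted p = 0.00117). For barr the log2 difference from WT was 0.91 ± 0.17 (adjusted p = 0.000824). The 3 estimates differed by less than their standard errors, and the summed level of the 3 subunits was 328.5 ± 47.1 CPM in WT and 622.9 ± 30.3 in nerfin-1[159] (SD, n = 3 each), a ratio of 1.90. In lola[E76], the glu libraries lay wholly above WT with a log2 difference of 0.35 ± 0.14 (adjusted p = 0.153), which was not called, while SMC2 and barr overlapped WT. A second list of mitotic genes, described below, holds further condensin subunits. In nerfin-1[159] against WT, Cap-G was called higher, with a log2 difference of 0.85 ± 0.13 (adjusted p = 0.000167). Cap-D2, Cap-H2 and Cap-D3 were not called, with log2 differences of 0.75, -0.24 and -1.07.

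**Figure D2:**
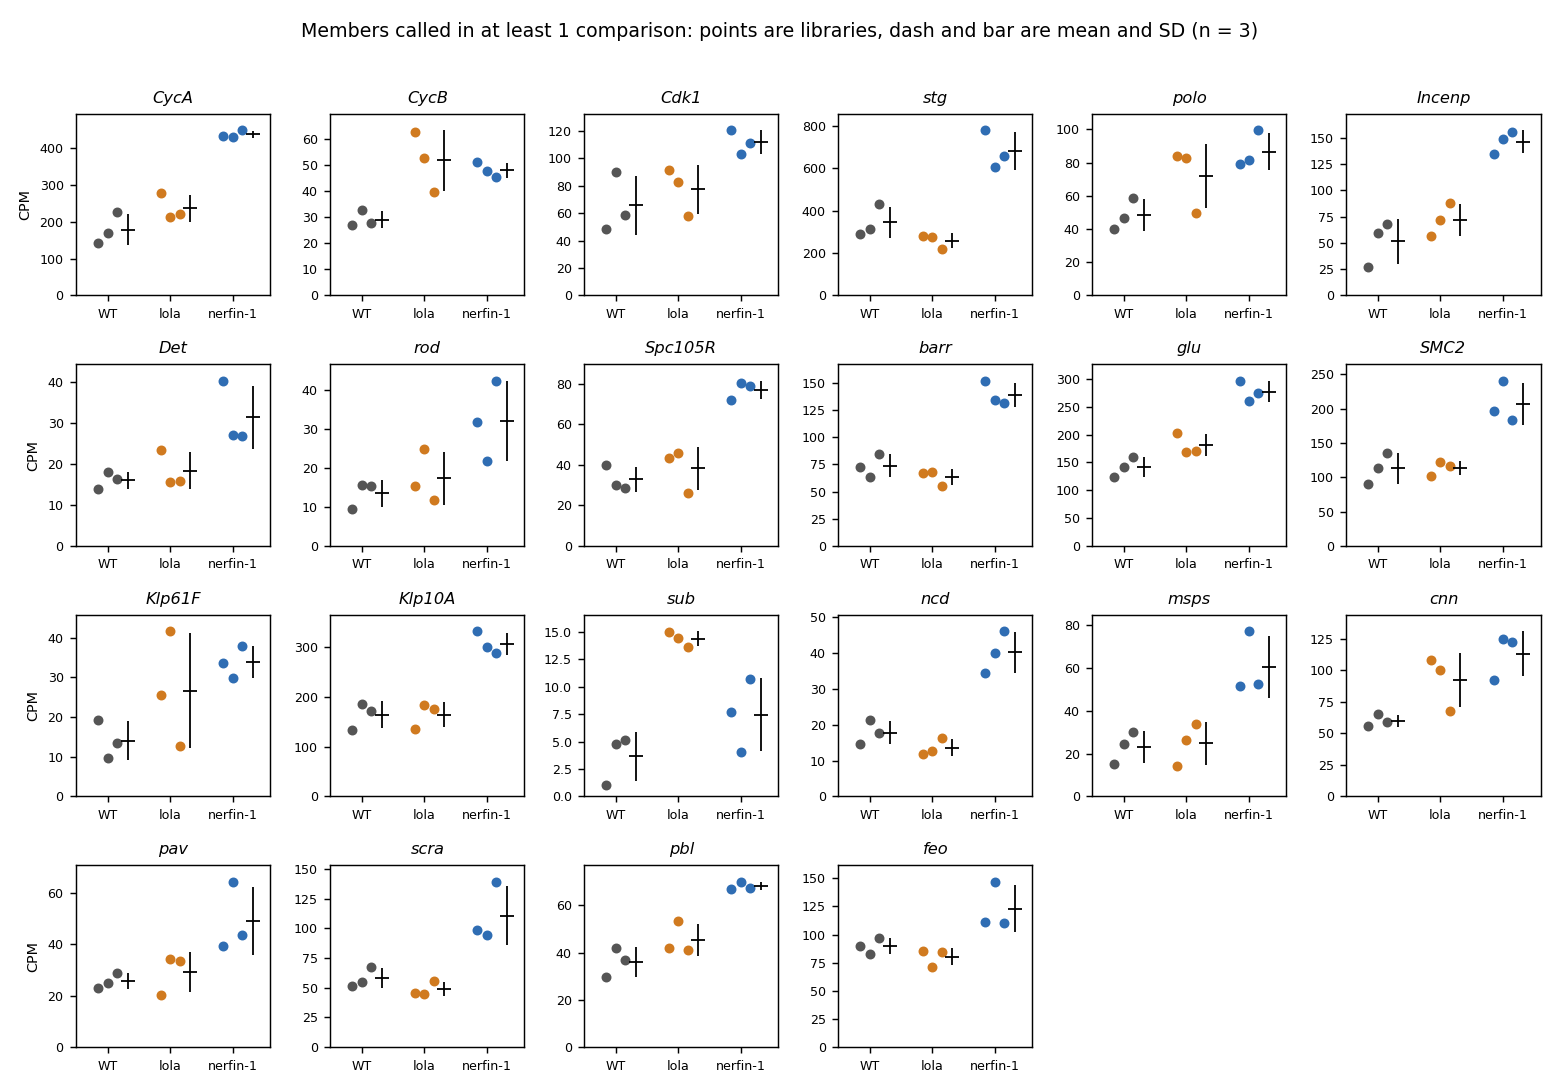
CPM (vertical axis, from 0, its own scale per gene) of the 22 genes called in at least 1 comparison, with 1 point per library coloured by genotype and the mean and SD of 3 libraries in black. The nerfin-1[159] points sit highest for most genes, while for sub the lola[E76] points sit highest, between 13.6 and 15.0 CPM.

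Spindle and centrosome genes gave 5 calls of 8 in nerfin-1[159]. Klp61F, the bipolar kinesin that pushes spindle poles apart, stood at 19.2, 9.58 and 13.5 CPM in the WT libraries, 25.7, 41.6 and 12.7 in those of lola[E76] and 33.7, 29.8 and 37.9 in those of nerfin-1[159]. Its nerfin-1[159] libraries were above WT, and lola[E76] spread over both ranges. The estimate for Klp61F against WT was 1.27 ± 0.37 in nerfin-1[159] on the log2 scale (adjusted p = 0.029). Without WT replicate 2 or 3 or any 1 nerfin-1[159] library Klp61F was not called, the adjusted p reaching 0.150. Klp10A, a kinesin that shortens microtubules, stood at 133, 186 and 172 CPM in the WT libraries, 135, 183 and 175 in those of lola[E76] and 331.6, 299.9 and 288 in those of nerfin-1[159]. There the 6 WT and lola[E76] libraries overlapped, and all nerfin-1[159] libraries lay above them. Klp10A in nerfin-1[159] exceeded WT by 0.90 ± 0.15 on the log2 scale (adjusted p = 0.000372). ncd, a minus-end kinesin that gathers microtubules at poles, stood at 14.6, 21.2 and 17.6 CPM in the WT libraries, 11.9, 12.7 and 16.3 in those of lola[E76] and 34.5, 40.1 and 46.1 in those of nerfin-1[159]. The nerfin-1[159] libraries were again apart from the rest. The log2 difference of ncd between nerfin-1[159] and WT was 1.17 ± 0.28 (adjusted p = 0.00815). Its adjusted p was 0.0525 without nerfin-1[159] replicate 3. msps, a microtubule polymerase, stood at 15.1, 24.6 and 29.9 CPM in the WT libraries, 14.0, 26.5 and 34.0 in those of lola[E76] and 51.8, 77.2 and 52.8 in those of nerfin-1[159]. Again the nerfin-1[159] libraries lay above all others. Between nerfin-1[159] and WT, msps differed by 1.38 ± 0.31 on the log2 scale (adjusted p = 0.0059). cnn, the centrosome scaffold centrosomin, stood at 55.9, 65.0 and 58.6 CPM in the WT libraries, 108, 100.4 and 67.9 in those of lola[E76] and 92.3, 124 and 122 in those of nerfin-1[159]. Both mutants were above WT and overlapped each other. For cnn the log2 difference from WT was 0.92 ± 0.19 (adjusted p = 0.00289). In lola[E76], cnn gave a log2 difference of 0.62 ± 0.19 (adjusted p = 0.0579) and was not called. tacc, which holds Msps at centrosomes, and asp, which focuses spindle poles, were not called in nerfin-1[159], with a log2 difference of 0.38 ± 0.15 (adjusted p = 0.124) and a log2 difference of 1.099 ± 0.48 (adjusted p = 0.165).

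The cytokinesis genes gave 3 calls of 5 in nerfin-1[159]. pav, the kinesin of the centralspindlin complex, stood at 23.0, 24.99 and 29.0 CPM in the WT libraries, 20.3, 34.3 and 33.5 in those of lola[E76] and 39.4, 64.4 and 43.7 in those of nerfin-1[159]. Its nerfin-1[159] libraries were above the other 6. The estimate for pav against WT was 0.94 ± 0.27 in nerfin-1[159] on the log2 scale (adjusted p = 0.0264). pav lost its call without any 1 WT library or nerfin-1[159] replicate 2, the adjusted p reaching 0.188. pbl, a gene that flies need for cytokinesis, stood at 29.4, 42.1 and 37.0 CPM in the WT libraries, 42.1, 53.2 and 40.9 in those of lola[E76] and 67.1, 70.0 and 67.4 in those of nerfin-1[159]. The nerfin-1[159] libraries were the highest and close to each other. pbl in nerfin-1[159] exceeded WT by 0.91 ± 0.20 on the log2 scale (adjusted p = 0.00543). scra, the fly anillin that links the contractile ring to the membrane, stood at 51.3, 54.8 and 67.5 CPM in the WT libraries, 45.7, 44.8 and 55.9 in those of lola[E76] and 98.3, 94.0 and 139 in those of nerfin-1[159]. Again all nerfin-1[159] libraries lay above the rest. The log2 difference of scra between nerfin-1[159] and WT was 0.93 ± 0.19 (adjusted p = 0.00287). tum, the other centralspindlin subunit, was not called, with a log2 difference of 0.67 ± 0.25 (adjusted p = 0.0955), its nerfin-1[159] libraries overlapping WT. feo, which bundles midzone microtubules, stood at 90.0, 83.1 and 97.2 CPM in the WT libraries, 85.2, 71.3 and 84.7 in those of lola[E76] and 111, 147 and 111 in those of nerfin-1[159]. Its nerfin-1[159] libraries were above the other 6, yet the comparison with WT was not called, with a log2 difference of 0.45 ± 0.16 (adjusted p = 0.0909).

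**Figure D3:**
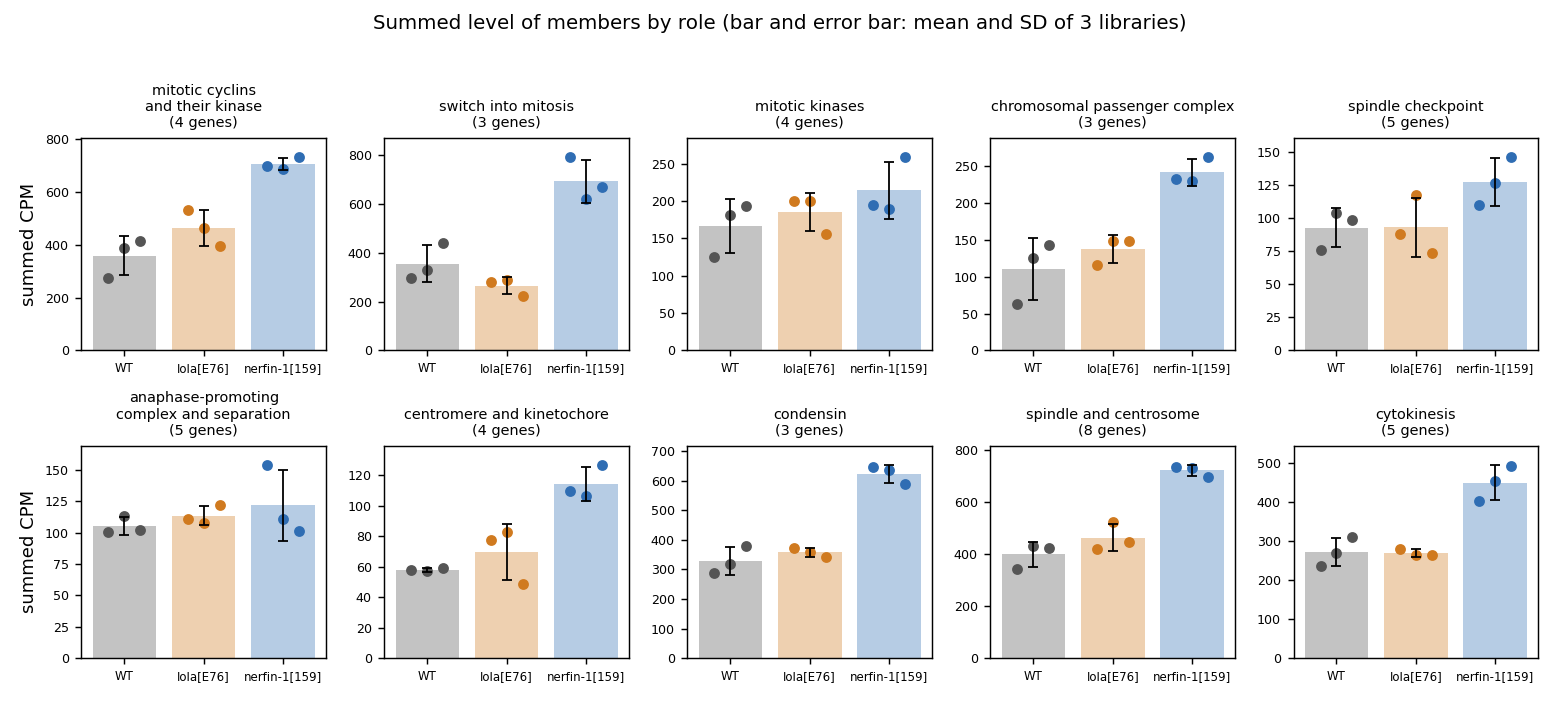
Summed CPM of each role (vertical axis, from 0) by genotype, with 1 point per library and the mean and SD of 3 libraries as bar and error bar. The condensin sum was 329 CPM in WT and 623 CPM in nerfin-1[159], while the anaphase-promoting complex and separation sum was 105 and 122 CPM.

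By role, the ratio of mean summed CPM between nerfin-1[159] and WT was 2.19 for the passenger complex, 1.98 for centromere and kinetochore, 1.96 for cyclins and Cdk1, 1.95 for the mitotic switch, 1.81 for spindle and centrosome and 1.66 for cytokinesis. It was lower for the spindle checkpoint at 1.37, the mitotic kinases at 1.28 and the anaphase-promoting complex and separation genes at 1.16. In that last group the nerfin-1[159] libraries stood at 154.0, 110.6 and 101.0 CPM and overlapped WT at 100.5, 113.3 and 102.5. These are descriptions of sums that abundant genes dominate, and no difference between roles was tested.

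In lola[E76], sub carried the highest estimate of the 44 genes against WT. sub, a kinesin of the central spindle, had raw counts of 4, 23 and 27 in the WT libraries, 62, 67 and 61 in those of lola[E76] and 27, 16 and 40 in those of nerfin-1[159]. The lola[E76] libraries were above the other 6 and close together, and WT replicate 1 was the lowest. Between lola[E76] and WT, sub differed by 1.94 ± 0.56 on the log2 scale (adjusted p = 0.0448). sub lost its call in every fit that left out a library except that without nerfin-1[159] replicate 2. It was also lost with the replicate number as a block, the adjusted p reaching 0.17. CycB lost its call without any 1 WT library or lola[E76] replicate 1 or 2, the adjusted p reaching 0.114. The count was 0 on leaving out WT replicate 1 or 2, and also lola[E76] replicate 1 or 2. It was 1 without WT replicate 3, where CycA was called and CycB and sub were not. Without nerfin-1[159] replicate 1 or 3 it was also 1, which was CycB. Without lola[E76] replicate 3 it was 4, with CycB, cnn, Klp61F and polo called and sub lost. Both genes lie on chromosome arm 2R, as does lola. On 2R 4.73% of all tested genes were called higher in lola[E76], beside 3.13% on 2L, 2.85% on 3L, 3.54% on 3R and 3.43% on X, and the part of the arm in these calls was not tested.

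Set directly against each other, nerfin-1[159] and lola[E76] differed in 12 of the 44 genes, all higher in nerfin-1[159], beside 6.94% of all tested genes called higher and 8.58% called lower. At an unadjusted p of 0.05, 19 were higher and 0 lower, and DESeq2 and limma voom called 14 and 13 higher and 0 lower. The 44 had a median log2 difference of 0.59, beside 0.00 over all genes, and 19 had all nerfin-1[159] libraries above all lola[E76] libraries, beside 14.9% of all tested genes. Among the 12 called genes, ncd came first with a log2 difference of 1.56 ± 0.28 (adjusted p = 0.000694) and stg next with a log2 difference of 1.40 ± 0.15 (adjusted p = 2.9e-06). msps followed with a log2 difference of 1.28 ± 0.31 (adjusted p = 0.0072) and scra with a log2 difference of 1.18 ± 0.20 (adjusted p = 0.000288). Also among the 12 were the 3 listed condensin genes. barr gave a log2 difference of 1.13 ± 0.17 (adjusted p = 9.16e-05), SMC2 one of 0.87 ± 0.16 (adjusted p = 0.000929) and glu one of 0.62 ± 0.14 (adjusted p = 0.00342). Incenp gave a log2 difference of 1.02 ± 0.24 (adjusted p = 0.00607) and Spc105R gave a log2 difference of 1.01 ± 0.23 (adjusted p = 0.00445). Klp10A, CycA and feo completed the 12, with log2 differences of 0.90, 0.89 and 0.61. Without nerfin-1[159] replicate 2 the calls of msps and feo were lost (adjusted p = 0.0563 and up to 0.108), and feo also without lola[E76] replicate 2. The column names differ here too, Nerfin2A against Lola42D. For CycB, which was called higher in both mutants against the same WT libraries, the mutants gave a log2 difference of -0.11 ± 0.22 (adjusted p = 0.819).

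Markers of neural cell types differed in the same libraries. Of 12 neuroblast markers, 10 were called higher in nerfin-1[159] than in WT and 5 in lola[E76], and 0 were lower in either at an unadjusted p of 0.05 or by edgeR, DESeq2 or limma voom. Their summed level ran from 5039 to 5201 CPM in WT, 6662 to 8845 in lola[E76] clones and 7331 to 7449 in those of nerfin-1[159]. Abundant genes dominated that sum, with mean brat at 3464, 3232 and 3229 CPM and SoxN at 961, 1182 and 1361 in WT, lola[E76] and nerfin-1[159]. The sum hid unlike WT libraries. In WT replicates 1, 2 and 3, raw counts were 5, 50 and 61 for dpn and 67, 376 and 458 for mira. For klu they were 106, 635 and 617. Not every marker was lowest in WT replicate 1, with insc at 97, 77 and 81 and ase at 72, 53 and 98. Ranges of the mutants overlapped for the sum. Gene by gene, 4 of the 12 were called higher in nerfin-1[159] than in lola[E76], which were dpn, klu, insc and E(spl)mgamma-HLH. Imp was the 1 called lower, and 6.94% and 8.58% of all tested genes were called higher and lower. Much of the lola[E76] sum was Imp, and without it the range was 4809 to 5080 CPM in WT, 4768 to 5893 in lola[E76] clones and 5832 to 6654 in those of nerfin-1[159]. Of 12 neuron markers, 7 were lower in nerfin-1[159] (nSyb, Syt1, brp, Rdl, para, VAChT and fne) and 2 in lola[E76] (nSyb and VAChT). Sums were 8325 to 9890 CPM in WT, 7173 to 7608 in lola[E76] clones and 5389 to 6352 in those of nerfin-1[159]. Abundant genes dominated here too, with mean fne at 4397, 3900 and 2450 CPM in WT, lola[E76] and nerfin-1[159]. elav stood at 2492, 2194 and 2345 CPM, and neither elav nor Syx1A was called against WT in either mutant. Ganglion mother cell and new neuron markers gave 3 higher and 2 lower of 6 in nerfin-1[159] and 1 higher and 1 lower in lola[E76], and their mean sum stood at 0.414 and 0.71 of the WT sum. That sum was mostly pros, which fell by 1.34 ± 0.16 on the log2 scale in nerfin-1[159] (adjusted p = 1.3e-05), whereas ase, tap and dap rose by 1.64 ± 0.30, 1.13 ± 0.18 and 0.74 ± 0.17. The second gene lower there was nerfin-1 itself. In lola[E76] the gene of this list called higher was ase and the gene called lower was nerfin-1. ase is also on the neuroblast list and so counts in both lists. Neuroepithelium markers gave 2 higher (ogre, shg) and 2 lower (hth, Fas2) of 5 in nerfin-1[159] and 3 higher and 1 lower in lola[E76], with mean sums at 0.719 and 1.43 of WT. The part of cell composition in the mitotic differences was not tested. Glial markers gave 0 edgeR calls of 9 tested in nerfin-1[159] against WT (2 higher at an unadjusted p of 0.05, 1 by DESeq2 and 1 by limma voom) and 1 in lola[E76], with sums of 184 to 207 CPM in WT, 202 to 304 in lola[E76] clones and 215 to 253 in those of nerfin-1[159]. Haemocyte and fat body markers summed to 19.2 to 27.7 CPM in WT, 104 to 150 in lola[E76] clones and 204 to 300 in those of nerfin-1[159], with 4 of 9 tested, NimC1 at 0 in every library and Hml at 0 to 15 counts. Single genes carried these sums. In nerfin-1[159] the one called gene of the list was Col4a1, a collagen IV chain, at 236 ± 42.2 CPM beside 5.09 ± 3.03 in WT (SD, n = 3 each), while its partner chain vkg stood at 2.85 and 3.33 CPM and SPARC and Pxn were not called. In lola[E76], SPARC at 86.0 ± 10.8 CPM (WT 13.0 ± 2.46) and Col4a1 at 29.4 ± 9.62 CPM were called (SD, n = 3 each). Eye disc markers summed to 49.97 to 51.0 CPM in WT, 38.6 to 52.3 in lola[E76] clones and 61.2 to 117.8 in those of nerfin-1[159], with sens at 0 throughout. Of 5 tested, ey alone was called, higher in nerfin-1[159] at 68.6 ± 21.4 CPM beside 30.1 ± 4.72 in WT (SD, n = 3 each). ato was not called, with a log2 difference of 1.38 ± 0.83 (adjusted p = 0.368), and so, eya and gl had estimates of -0.01, -0.71 and -0.75. WT replicate 1 was the lowest WT library for 33 of the 44 genes, and without it 14 were called higher in nerfin-1[159].

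A second list of 94 genes of G2 and mitosis, 87 of them tested, holds further subunits of the same complexes, centriole genes and entry factors. In nerfin-1[159] against WT, 14 were higher and 1 was lower, beside 5.66% and 6.27% of all tested genes, with a median log2 difference of 0.41. The count higher was 7 without WT replicate 1, 8 without WT replicate 2, 9 without nerfin-1[159] replicate 2 and 6 without nerfin-1[159] replicate 3, and grp was lost without each of these and without WT replicate 3. The 3 largest increases at a mean log2 CPM of at least 3 were lok (the checkpoint kinase Chk2) at 2.08 ± 0.62 (adjusted p = 0.0335), cana (a centromere kinesin) at 2.00 ± 0.53 (adjusted p = 0.0153) and Sas-6 (a centriole protein) at 1.68 ± 0.50 (adjusted p = 0.0348). Counts of lok were few, with raw counts of 2, 7 and 31 in the WT libraries and 41, 50 and 39 in those of nerfin-1[159]. grp, the checkpoint kinase Chk1, fell by 0.49 ± 0.15 on the log2 scale (adjusted p = 0.0392). The anaphase-promoting complex group holds subunits and the ubiquitin-conjugating enzymes vih and CG8188. In this comparison it gave 0 calls among 10 tested by edgeR, 0 at an unadjusted p of 0.05 and 0 by DESeq2 or limma voom. Between the mutants, 19 were higher in nerfin-1[159] and 1 lower, beside 6.94% and 8.58% of all tested genes. They included the kinetochore gene Spc25 at 1.89 ± 0.47 (adjusted p = 0.00818), the mitotic kinase gwl (Greatwall) at 1.64 ± 0.53 (adjusted p = 0.0411) and the spindle gene mars at 1.49 ± 0.28 (adjusted p = 0.000955), while san, a cohesion acetyltransferase, fell by 0.67 ± 0.20 (adjusted p = 0.0309). san was lost without lola[E76] replicate 3 or nerfin-1[159] replicate 1 or 3. The count higher was 12 without lola[E76] replicate 3 or nerfin-1[159] replicate 2 or 3. In lola[E76] against WT edgeR called 1 higher and 0 lower, beside 3.58% and 2.91% of all tested genes, with 9 and 7 at an unadjusted p of 0.05, 7 and 3 by DESeq2 and 1 and 1 by limma voom, and the median log2 difference was 0.05. That gene was eco, which acetylates cohesin, with raw counts of 12, 51 and 77 in the WT libraries and 126, 119 and 134 in those of lola[E76], and a log2 difference of 1.57 ± 0.39 (adjusted p = 0.0164), and without WT replicate 1 the count was 0.

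Genes that overlap another gene are uncertain, because no source used here says whether counting used the strand. By the positions in the reference table, 17 of the 44 overlap another gene, among them 8 of the 22 called in at least 1 comparison, which are CycA, Klp10A, Klp61F, cnn, glu, msps, ncd and sub. Of the partners of these 8, 4 were tested, and 0 had an unadjusted p under 0.05 in any comparison or were called by edgeR, DESeq2 or limma voom. CG7264, which overlaps CycA, had 104 counts over all 9 libraries, and Nubp1, which overlaps glu, had 707. galene and Ir54a, which overlap Klp61F and sub, had 0 counts.

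Lola.N peaks lay at 17 of the 44 genes (38.6%), beside 19.4% of all genes with a position and 28.3% of tested genes. A peak counted where the authors' peaks of both replicates overlapped and their common interval fell within a gene or 1 kb on either side. Peaks of N1 numbered 4676 and those of N2 4544, and 3342 intervals were shared. Scores are the authors' own and their scale is not given. A longer gene has more room for a peak, and the median length was 3269 bases for the 44, 3175 for all tested genes and 5071 for tested genes with a peak. No test of the share was made.

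**Figure D4:**
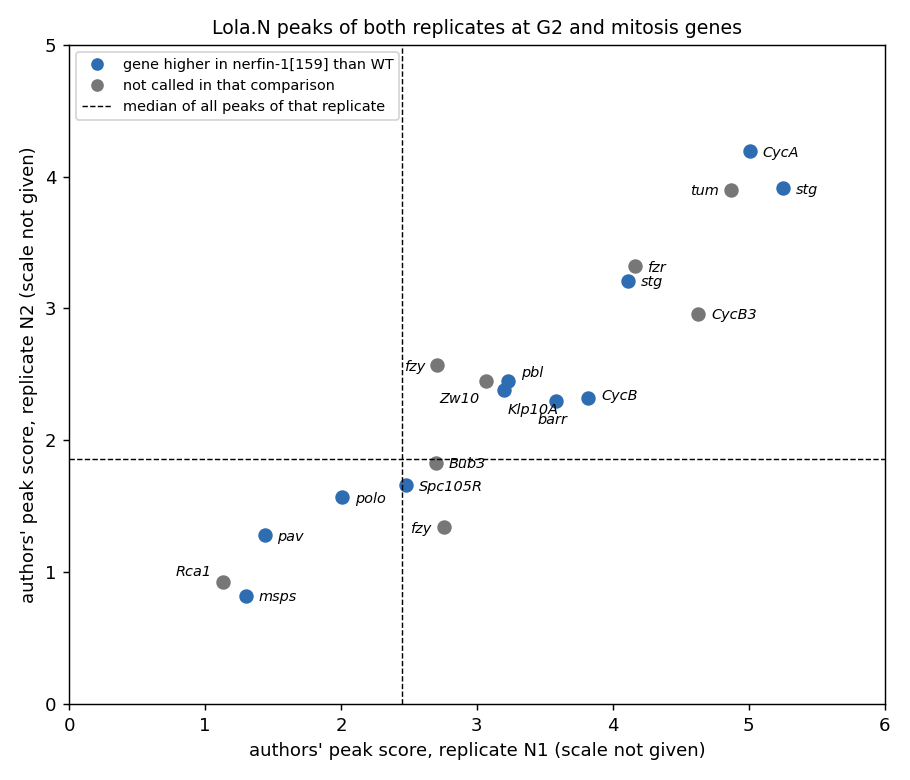
The authors' peak score in replicate N1 (horizontal) and N2 (vertical) for the 19 peaks of both replicates at 17 of the 44 genes, coloured by the call in nerfin-1[159] against WT, with dashed lines at each replicate's median score. CycA, stg and tum lie at the upper right, with scores of 4.87 to 5.25 in N1, and Rca1 and msps at the lower left.

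Of the 19 peaks, the highest score in N1 was at stg and the highest in N2 at CycA. CycA had a peak inside the gene at chr3L:11831949-11833052, with scores of 5.01 in N1 and 4.19 in N2, at or above 96.1% and 97.8% of the peaks of those replicates. stg had a pair of peaks, at chr3R:29253130-29253715 with scores of 4.11 and 3.21, and at chr3R:29253918-29256112 with scores of 5.25 and 3.91. The second peak at stg spans an end of the gene and also lies within 1 kb of CG45544. No source used here names the build of these coordinates, and genes were placed with the Release 6 table. CycB, CycB3, fzr and tum also had peaks with scores of at least 3.82 in N1, and Cdk1 had no peak in either replicate. Peaks of both replicates were also found at polo, Bub3, Zw10, fzy, Rca1, Spc105R, barr, Klp10A, msps, pav and pbl. At Rca1 and msps the scores were low, at 1.13 and 1.30 in N1, where the median over all peaks was 2.45. Of the 19 peaks, 12 also lay within 1 kb of another gene, and 7 were near no other gene, those at CycA, CycB, stg, polo, fzr, Klp10A and pbl. A further 6 genes had a peak in a single replicate, Mps1, BubR1, Ndc80 and tacc in N1 and rod and cnn in N2, and 21 had none.

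Peaks were present at 10 of the 20 genes higher in nerfin-1[159] and at 7 of the other 24, beside 28.3% of all tested genes. The share among all genes called higher in nerfin-1[159] was not counted, and a link between peaks and calls was not tested. Of the lola[E76] calls, CycB had a peak and sub had none. stg, which carried the widest of the 19 peaks, had an uncalled estimate of -0.42 in lola[E76], and CycA, with the highest N2 score, one of 0.41. DamID was done in ey16F10-GAL4 cells of the L3 brain and RNA was measured in sorted clones, so no Lola.N contact was measured in the clones themselves.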

How the data were processed

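RNA was measured in 9 QuantSeq libraries, and the deposited table holds raw counts per gene, per the labels. Subread, featureCounts and limma are named in the submitters' processing notes, and no source used here gives the build, annotation or strand setting. Genes with no symbol, 33 of the 17633, stayed in the fit and held at most 0.0085% of a library's counts. Counts were fitted over all 9 libraries with edgeR 4.0.16 in R 4.3.3, with filterByExpr, trimmed mean of M-values scaling and genotype as the term, and the quasi-likelihood F test was two-sided with no minimum fold. Fitted log2 differences used a prior count of 0.125. Same-genotype libraries differed by more than sampling noise and were kept as separate replicates. The procedure was also run on counts simulated from the means and spreads of these libraries, and its outcome is not given here. Such counts hold no difference of cell composition or batch, so that run cannot address either.

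Peaks with a score per peak were called by the authors in each replicate against Dam alone, with an FDR limit of 0.01 in the file names, and the scale of the score is not given. Peaks of both replicates were intersected and placed with the Release 6 gene table, which gave names and positions but no strand. The 2 Dam-only samples were not analysed here on their own. Alternatives used DESeq2 1.42.0 and limma 3.58.1, other scalings and filters, and fits without each library.

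The 44 genes, the second list and the markers were chosen with earlier results of these data known. Genes called in at least 1 comparison were given in every library. Other members were given by range, or by name where they complete a complex. From the second list, up to 3 called genes each way per comparison were named by size of the log2 difference at a mean log2 CPM of at least 3, and lola, nerfin-1 and trbl were always named. Condensin subunits of the second list were named to complete that role, after the values were seen.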

Additional observations from a re-analysis of the deposited data

Results flagged for a closer look

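For 12 of the 44 genes, the difference between the mutants was itself tested and called by edgeR, so their effects against the shared WT libraries were unequal. The nerfin-1[159] columns are named Nerfin2A while those of lola[E76] and WT carry 42D, so genotype and column name cannot be told apart. In each, the level was higher in nerfin-1[159] in 3 of 3 libraries than in every lola[E76] library. The log2 difference of nerfin-1[159] from lola[E76] was 1.56 for ncd, 1.40 for stg, 1.28 for msps, 1.18 for scra, 1.13 for barr and 1.02 for Incenp. It was 1.01 for Spc105R, 0.90 for Klp10A, 0.89 for CycA, 0.87 for SMC2, 0.62 for glu and 0.61 for feo. For stg, ncd, scra, barr and feo the lola[E76] estimate against WT was below 0, at -0.42, -0.39, -0.25, -0.22 and -0.16 on the log2 scale, and was not called.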

How the results depend on the processing

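No member changed direction among the calls under any alternative, and 12 of 20 calls in nerfin-1[159] against WT, 10 of 12 between the mutants and 0 of 2 in lola[E76] held under all of them. Apart from fits without a library, 18, 12 and 1 held. Leaving out 1 library gave 13 to 20 members higher in nerfin-1[159] against WT, 10 to 14 between mutants and 0 to 4 in lola[E76], with 0 lower in each. All genes called ranged from 593 to 1008, 889 to 1135 and 315 to 497, and the members' median log2 difference from 0.69 to 0.93, 0.50 to 0.68 and 0.01 to 0.29. The second list had 6 to 16, 12 to 19 and 0 to 2 higher and 0 to 1 lower in each. The summed ratio ranged from 1.65 to 1.92 for nerfin-1[159] and from 0.991 to 1.16 for lola[E76]. The lola[E76] ratio turned to 0.991 without WT replicate 1, and the cause was not tested.

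In lola[E76] against WT, the second list gave 7 higher and 3 lower with DESeq2, 3 higher with the stricter filter of at least 5 CPM in 3 libraries, and 2 higher with RLE size factors and with library size only. It gave 1 lower with the 2 groups only, 1 lower with limma voom, and 2 higher and 2 lower with no low-count filter, which also called 1 member lower, stg. Causes were not tested.

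Replicate numbers did not pair the libraries. Correlations of deviations between same-numbered libraries ran from -0.056 to 0.023, and for 1 of 9 libraries the best match was a same-numbered one. With the replicate number as a block, 18 members were higher in nerfin-1[159] against WT, 12 between the mutants and 1 in lola[E76].

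Members with a peak numbered 11 when the peaks scored above each replicate's median were kept (25% of members, 15.9% of tested genes). With N2 or N1 alone they numbered 19 or 21 (43.2% and 47.7%, beside 36.6% and 37.6% of tested genes). The gene-start window was not run, since the table gives no strand, and a window of 1 kb at either gene end, chosen after seeing the data, gave 15. Depth limits Myt1, aurA, thr and cid, which had under 30 counts in every library.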

Other observations

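Of the 19 Lola.N peaks at the 44 genes, 3 also lay within 1 kb of another mitotic gene, so a single peak stood near a pair of them. The peak at barr lay near lok, that at Zw10 near Klp3A, a kinesin of the central spindle, and that at Bub3 near Cap-D2, a condensin subunit. Klp3A and Cap-D2 were named for their place beside these peaks, after the values were seen. In nerfin-1[159] against WT, lok and barr were both called higher, with log2 differences of 2.08 ± 0.62 and 0.91 ± 0.17. Klp3A gave 1.21 ± 0.42 (edgeR adjusted p = 0.0689) and Cap-D2 0.75 ± 0.36 (edgeR adjusted p = 0.23), and neither was called. In lola[E76] against WT, lok gave 2.07 ± 0.62 (edgeR adjusted p = 0.0515) and was not called, with all lola[E76] libraries above all WT libraries, while barr gave -0.22 ± 0.17. The WT libraries held 2, 7 and 31 counts of lok, so its estimates against WT rest on few counts.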
